A study of Mnemiopsis leidyi with 50 samples.

Results

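ML003220a, ML223518a and ML46084a are 3 of the 168 colloblast candidates of the ctenophore *Mnemiopsis leidyi* that were followed here, and 3 of the 16548 protein models (ML2.2) in the count table. They were chosen by their level in whole embryos: under 1 CPM on average (CPM is the count of a model in an embryo, scaled so that the counts of every embryo have the same total) at 0 to 9 hours post fertilization (hpf), and over 200 CPM at 12 to 20 hpf. The rise from the early to the late window is therefore how they were found, and it is given below as a description without a test. Single embryos were sequenced by CEL-Seq, a method that tags the 3′ ends of transcripts with a barcode for each embryo and a unique molecular identifier. The series held 50 embryos at 26 time points: a single embryo per time point up to 12 hpf, then 4 for every hour between 13 and 20 hpf. Adults had been collected from the wild and spawned after a period of darkness, and the labels do not say whether embryos of 1 hour shared a spawning, so that p-values measure the spread between these embryos alone.

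Colloblasts are the adhesive cells of ctenophore tentacles. Each carries a head covered with granules of glue that burst on contact with prey, and it is anchored by a spiral filament. New colloblasts form continuously from precursors at the base of the tentacle, and in *M. leidyi* embryos the tentacle apparatus forms in the later hours of development. Because whole embryos were sequenced, more colloblasts and more RNA in each colloblast cannot be told apart, nor was it measured in which cells the 3 models were expressed.

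In sequence annotation ML003220a carries a histone H5 signature together with predicted disorder and a coiled coil. Histone H5 is known from birds, where it is the linker histone of nucleated red blood cells and packs their chromatin tightly. Whether ML003220a has such a role in a ctenophore is not known from these data. ML223518a has no annotation beyond predicted disorder. ML46084a has no annotated match in the sources used here. It was listed in the second of the clusters of colloblast candidates that the study built from embryo data including this time course.

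Depth was uneven. The embryos held between 1119 and 2079694 counts, with a median of 837824, and 5 of them (those at 0 and 5.5 hpf, 1 at 15 hpf and 2 at 19 hpf) were shallow, with fewer than 279275 counts. The libraries also fell into 2 sets. Embryos numbered up to 60 covered 0 to 12 hpf with 1 further embryo each at 13 and 20 hpf, and those numbered above 60 made up the other embryos from 13 hpf on. In the first set, without the embryo at 0 hpf, 3.21 to 4.54% of reads were ambiguous and 45.6 to 50.7% were not aligned, against 0.740 to 2.04% and 55.4 to 78.4% in the second. No early embryo belongs to the second set, so the library set and the late window cannot be told apart except through the embryos of the first set at 12, 13 and 20 hpf.

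**Figure D1:**
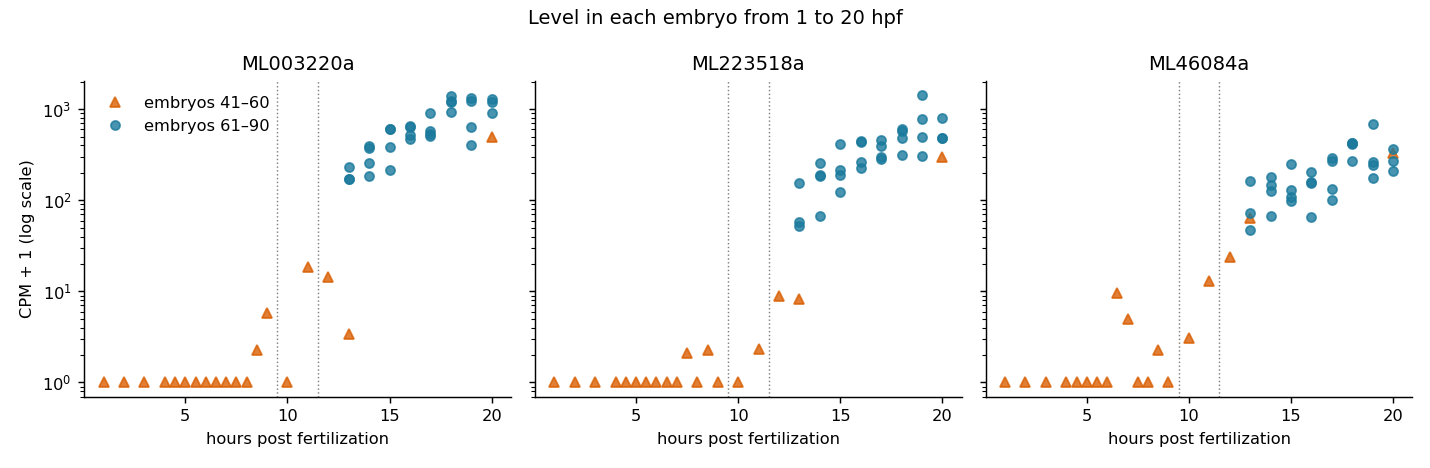
Level of each model (CPM + 1, log scale) in each of the 49 embryos from 1 to 20 hpf, with 1 point per embryo, triangles for embryos numbered up to 60 and circles for those above 60. Dotted lines mark the end of the early window and the start of the late one; most early points lie at 0 CPM, and the embryo of the first set at 13 hpf stands below the circles for ML003220a (2.41 CPM) and ML223518a (7.23 CPM) but among them for ML46084a (62.7 CPM).

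Through the first hours of development the models were almost without counts. Over the 15 embryos at 0 to 9 hpf, which held 10133321 counts together, ML003220a had 5 counts, ML223518a had 2 and ML46084a had 11. Each was at 0 in at least 12 of the 15 embryos. The pooled early level was 0.493 CPM for ML003220a (95% Clopper-Pearson interval 0.160 to 1.15, counting error only), 0.197 CPM for ML223518a (0.0239 to 0.713) and 1.09 CPM for ML46084a (0.542 to 1.94). Pooled in this way ML46084a lay just over the limit of 1 CPM that chose it, while its mean over the embryos was 0.922 CPM.

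The few early counts did not fall at the same hour. ML46084a had 8 counts in the embryo at 6.5 hpf (8.64 CPM) and 2 in that at 7 hpf (3.94 CPM), and was back at 0 at 7.5 and 8 hpf. ML223518a had 1 count at 7.5 hpf. The embryo at 8.5 hpf held 1 count of each of the 3 models (1.25 CPM each). ML003220a followed with 4 counts at 9 hpf (4.75 CPM), where the other two were at 0.

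From 10 to 12 hpf, with a single embryo at each hour, counts of the models began to accumulate. At 10 hpf ML003220a and ML223518a had no count, which allows up to 7.61 CPM, and ML46084a had 1 count (2.06 CPM). At 11 hpf ML003220a reached 13 counts (17.5 CPM, interval 9.31 to 29.9) and ML46084a reached 9 (12.1 CPM, 5.54 to 23.0), while ML223518a had 1 (1.35 CPM, 0.0341 to 7.50). The intervals of ML003220a and ML223518a did not overlap in that embryo. At 12 hpf the counts were 17 for ML003220a (13.4 CPM, 7.83 to 21.5), 10 for ML223518a (7.90 CPM, 3.79 to 14.5) and 29 for ML46084a (22.9 CPM, 15.3 to 32.9). ML46084a was thus the highest of the 3 at 12 hpf, although it was the lowest in the late window as a whole.

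In the late window the 3 models were the highest of the 168 colloblast candidates used here. ML003220a ranged from 2.41 CPM to 1401 CPM over the 33 embryos at 12 to 20 hpf, with a median of 530 CPM and a mean of 625 CPM ± 407 (SD, n = 33). ML223518a ranged from 7.23 to 1418 CPM, with a median of 300.3 CPM and a mean of 356 CPM ± 277 (SD, n = 33). ML46084a ranged from 22.9 to 686 CPM, with a median of 176 CPM and a mean of 209 CPM ± 141 (SD, n = 33). By late level they took ranks 1, 2 and 3 among the 168 candidates, and ranked 245th, 426th and 729th among all models. Against the pooled early level, the late mean was 1267 times as high for ML003220a (counting interval of the early level, 543 to 3902), 1801 times for ML223518a (499 to 14874) and 193 times for ML46084a (108 to 386). These intervals hold the counting error of the early counts and not the spread between embryos. The early level comes from the first library set alone and most late embryos are of the second, so the ratios also hold any difference between the sets.

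How the late window is averaged decides whether ML46084a meets the limit. With each time point weighted equally its late level was 194 CPM, under 200, so 2 of the 3 models met both limits. With each embryo weighted equally it was 209 CPM, and all 3 did. Its early level of 0.922 CPM lay just inside the other limit, and passed it at 1.06 CPM without the shallow embryos and at 1.02 CPM with totals scaled by TMM factors. ML003220a (574 CPM over time points) and ML223518a (327 CPM) met the limits under every way of averaging except with the embryos numbered up to 60 alone, which gave late levels of 171, 104 and 138 CPM for ML003220a, ML223518a and ML46084a, so that none of the 3 reached 200.

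The rule itself used these values, so the place of the 3 models among the candidates is a description. In late level ML003220a and ML223518a lay far above the other candidates, while ML46084a, at 194 CPM, lay close to the next one. Of the 162 candidates with a count, 79 were under 1 CPM in the early window, beside 6478 of the 15152 models with a count. Among the 76 such candidates other than the 3 models, the highest late levels were 22.1 CPM for ML06458a (early 0.558 CPM) and 17.2 CPM for ML01434a (early 0.309 CPM). The candidate with the next highest late level, ML150914a, reached 188 CPM but from 81.2 CPM in the early window, and ML15994a reached 144 CPM from 11.7 CPM. Such a course was not limited to the 168 candidates used here. That list is not the complete one of the study, so the models outside it may include further candidates. Among all 15152 models with a count, 18 met both limits with time points weighted equally (0.119%) and 20 with embryos weighted equally (0.132%), none of them among the 148 tentacle candidates used here. The 3 models were chosen by this contrast, and nothing is read from these shares. The embryo at 0 hpf, with 1119 counts, weighs as much in the early mean as any other time point. No count in that embryo allows up to 3291 CPM, and a single count there can carry a model over 1 CPM. With 0 hpf left out, 17 models met both limits.

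**Figure D2:**
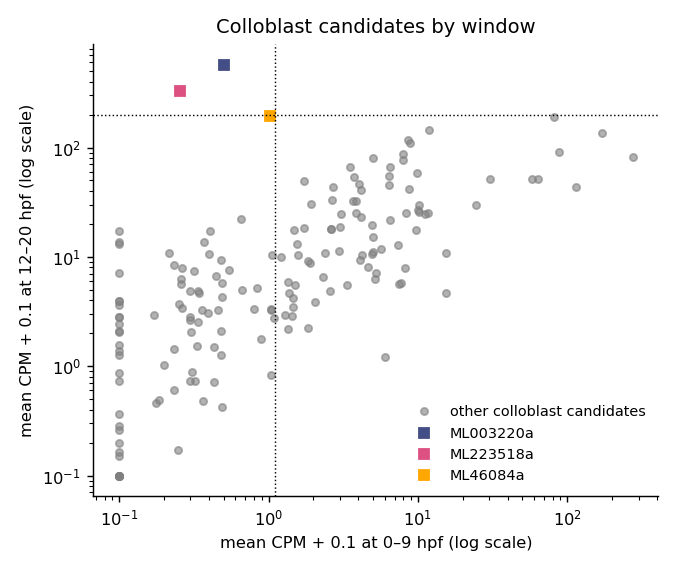
Mean level at 0 to 9 hpf against mean level at 12 to 20 hpf (CPM + 0.1, both axes log scale, mean over time points), with 1 point for each of the 168 colloblast candidates. Dotted lines mark 1 CPM and 200 CPM. ML003220a and ML223518a lie above the late limit and ML46084a lies just below it (194 CPM). No other candidate to the left of the early limit exceeds 22.1 CPM.

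Differences among the hours from 13 to 20 hpf were tested, but these tests are not free of the rule that chose the models. Its late limit was a mean that includes these hours, so high levels at 17 to 20 hpf helped a model to pass. ML46084a averaged 127 CPM at 13 to 16 hpf, under the limit of 200 CPM. Of the 16 other models that met the limits, 12 were called higher at 17 to 20 hpf and 0 lower. All 3 were higher in the second part of this span. ML003220a lay between 2.41 and 646 CPM at 13 to 16 hpf, with a median of 383 CPM, and between 405 and 1401 CPM at 17 to 20 hpf, with a median of 923 CPM. ML223518a lay between 7.23 and 448 CPM (median 190 CPM) and then between 286 and 1418 CPM (median 480 CPM). ML46084a lay between 46.7 and 251 CPM (median 127 CPM) and then between 98.6 and 686 CPM (median 270 CPM). The groups overlapped for each model: 10, 10 and 11 of the 16 later embryos lay above every earlier one for ML003220a, ML223518a and ML46084a.

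With edgeR's quasi-likelihood test across all 8374 models that passed its filter on low counts, and Benjamini-Hochberg adjustment over them, each of the 3 rose. The mean of ML003220a was 366 CPM ± 199 and then 922 CPM ± 351 (SD, n = 16 each), which is 1.48 on the log2 scale of the fit (SE 0.23, adjusted p = 2.12e-05). For ML223518a the means were 205 CPM ± 136 and 528 CPM ± 285, with a log2 fold change of 1.58 (SE 0.24, adjusted p = 1.71e-05). For ML46084a they were 127 CPM ± 57.7 and 304 CPM ± 141, with a log2 fold change of 1.29 (SE 0.21, adjusted p = 5.62e-05). Of all models tested, 3.53% were called higher at 17 to 20 hpf and 1.66% lower. These shares are not the rate for models chosen by a high late mean, so the 3 rises are not set against them as a result. The 3 fold changes ranked 144th, 123rd and 206th of the 8374. Within the second library set alone the log2 fold changes were 1.44 for ML003220a, 1.55 for ML223518a and 1.23 for ML46084a (edgeR, adjusted p = 1.28e-07, 7.5e-06 and 0.000205).

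A test over all 8 hours together passed as well, on embryos that the rule had also used. The hour means spanned a log2 range of 3.05 for ML003220a (edgeR, adjusted p = 0.000436) and 3.45 for ML223518a (adjusted p = 0.000277). For ML46084a the range was 2.11 (adjusted p = 0.00322). Of the 16 other models that met the limits, 12 changed across the hours too. The share over all models tested was 3.55%, which is not the rate for models chosen by a high late mean. The 3 changes are therefore not set against it as a result.

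**Figure D3:**
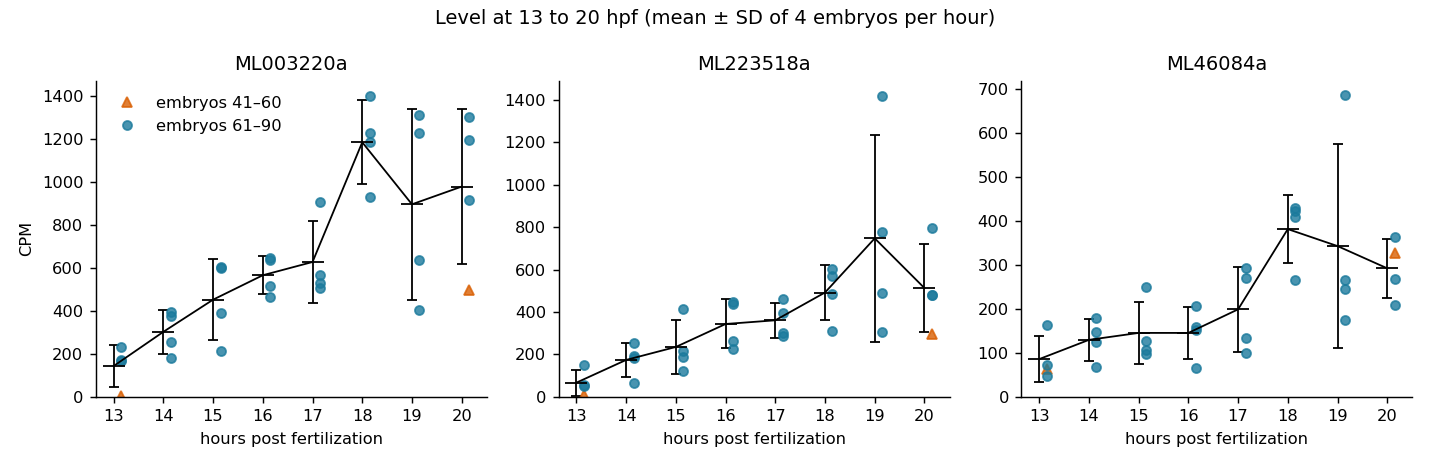
Level of each model (CPM, linear scale from 0) at each hour from 13 to 20 hpf, with 1 point per embryo and black bars for the mean ± SD of the 4 embryos of an hour; triangles are embryos numbered up to 60. ML003220a was highest on average at 18 hpf (1186 CPM), ML223518a at 19 hpf (747 CPM) and ML46084a at 18 hpf (382 CPM), and the embryos of an hour spread widely, most of all at 19 hpf.

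Hour by hour, the mean of ML003220a was higher at each hour than at the one before up to 18 hpf. At 13 hpf its levels were 2.41, 232, 169 and 170 CPM, and at 14 hpf 378, 254, 397 and 182 CPM. At 15 hpf they were 389, 602, 214 and 606 CPM, the 214 CPM resting on 4 counts in the shallowest embryo of these hours (18731 counts). The means of these hours were 143, 303 and 453 CPM, in rising order with overlapping embryos. At 16 hpf the levels were 515, 646, 467 and 638 CPM, and at 17 hpf 530, 569, 908 and 505 CPM. At 18 hpf they were 1401, 1227, 929 and 1185 CPM. Every embryo at 18 hpf lay above every embryo at 17 hpf, the one step among the 21 (7 for each model) where the hours did not overlap. At that step 2.54% of the 8374 models had all 4 embryos above the earlier 4, and over the 7 steps together 3.59% of the comparisons of all models did not overlap in either direction, a share near that of 1 in 21 for the 3 models. The exact permutation test gave its smallest possible p, 0.0286, which was 0.40 after adjustment over the 21 steps. At 19 hpf the levels were 1231, 1313, 638 and 405 CPM, and at 20 hpf 498, 1305, 917 and 1197 CPM, with hour means of 897 CPM ± 445 and 979 CPM ± 360 (SD, n = 4).

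ML223518a had its highest hour mean, and its widest spread, at 19 hpf. Its levels at 13 hpf were 7.23, 50.7, 152 and 56.8 CPM, at 14 hpf 254, 65.7, 185 and 190 CPM, and at 15 hpf 415, 123, 214 and 189 CPM. The means were 66.7, 174 and 235 CPM. At 16 hpf the levels were 448, 226, 437 and 263 CPM, at 17 hpf 397, 460, 286 and 300.3 CPM, and at 18 hpf 570, 482, 311 and 603 CPM. The embryos at 16 and 17 hpf covered nearly the same span, with means of 343 and 361 CPM. At 19 hpf the levels were 775, 1418, 490 and 306 CPM, and 1 embryo of that hour, at 1418 CPM, was the highest of all 33 late embryos. At 20 hpf they were 297, 478, 482 and 794 CPM, with a mean of 513 CPM ± 207 (SD, n = 4).

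ML46084a had hour means under 200 CPM until 17 hpf, the smallest of the 3 from 14 hpf on. Its levels at 13 hpf were 62.7, 71.2, 163 and 46.7 CPM, at 14 hpf 179, 66.9, 147 and 125 CPM, and at 15 hpf 128, 96.3, 107 and 251 CPM. The means were 85.8, 130 and 145 CPM. At 16 hpf the levels were 153, 206, 65.1 and 158 CPM, and at 17 hpf 292, 271, 134 and 98.6 CPM, where the embryos formed a higher and a lower pair. At 18 hpf they were 429, 266, 410 and 422 CPM, with a mean of 382 CPM ± 77.5 (SD, n = 4). At 19 hpf the levels were 265, 686, 245 and 176 CPM, and at 20 hpf 328, 210, 363 and 268 CPM. The embryo at 686 CPM was the same that held the highest level of ML223518a, and it also held 1313 CPM of ML003220a.

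No single step from one hour to the next passed the test for any of the 3 models. With edgeR the adjusted p of the 21 steps lay between 0.646 and 1.00, and 3 of them had an unadjusted p under 0.05: ML003220a and ML223518a from 13 to 14 hpf, and ML46084a from 17 to 18 hpf. DESeq2 and limma voom called 0 of the 21 as well, with 3 each at an unadjusted p under 0.05. The test called no model at any of the 7 steps (0% of 8374), while 188 to 788 models a step had an unadjusted p under 0.05; DESeq2 called 0 to 16 models a step and limma voom 0 or 1. When the 8 hours were ranked by mean level, all 21 pairs of neighbours overlapped, so that the order of hours within the climb was not resolved with 4 embryos each.

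The hour from which a model stayed at or above 50% of its mean over 13 to 20 hpf was 15 hpf for ML003220a and ML223518a and 14 hpf for ML46084a. At 12 hpf ML46084a was at 10.6% of that mean, against 2.09% for ML003220a and 2.16% for ML223518a. With the mean of the embryos of the first library set at 13 and 20 hpf as the reference, the hours were 13, 14 and 14 hpf. Each rests on 1 to 4 embryos an hour, and no test was made of these differences.

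At 13 and 20 hpf, embryos of both library sets can be set side by side. At 13 hpf the embryo of the first set had 2.41 CPM of ML003220a (1 count), against 169, 170 and 232 CPM in the second set. For ML223518a it had 7.23 CPM (3 counts) against 50.7, 56.8 and 152 CPM. For ML46084a it had 62.7 CPM (26 counts), which lay among the 46.7, 71.2 and 163 CPM of the second set. At 20 hpf the pattern was the same in kind: the embryo of the first set lay below the 3 others for ML003220a (498 CPM against 917 to 1305) and ML223518a (297 against 478 to 794), and among them for ML46084a (328 against 210 to 363). With 1 embryo against 3 a permutation test cannot give a p below 0.25, and none was made. The embryo of the first set lay below all 3 others for 47.6% of 6705 models with at least 10 CPM in the late window at 13 hpf, and for 37.4% at 20 hpf. The ratio of the second set's mean to the first set's embryo at 13 hpf was 79.0 for ML003220a, resting on 1 count, 12.0 for ML223518a and 1.49 for ML46084a, beside a median of 1.33 over the 6705 models and of 3.54 over the 16 other models that meet the limits. At 20 hpf the ratios were 2.29, 1.97 and 0.855, beside medians of 1.26 and 1.65. The library set and the stage these embryos had reached cannot be told apart.

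**Figure D4:**
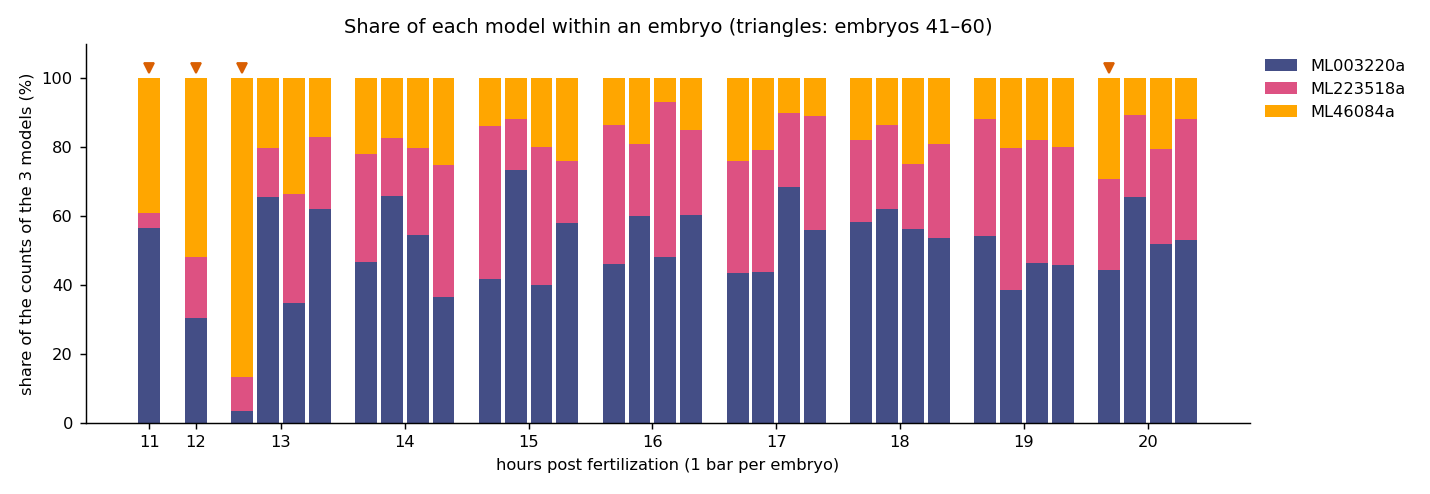
Share of ML003220a, ML223518a and ML46084a in the sum of their own counts (%), with 1 bar per embryo from 11 to 20 hpf and triangles over embryos numbered up to 60. ML46084a took 86.7% in the embryo of the first set at 13 hpf and 51.8% at 12 hpf, against 6.72 to 33.6% in the 30 embryos of the second set.

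The make-up of the 3 within an embryo does not depend on how the embryo's total is scaled. In the 30 embryos numbered above 60, ML003220a took 34.9 to 73.3% of the counts of the 3 (median 53.9%), ML223518a 14.3 to 45.1% (median 29.3%) and ML46084a 6.72 to 33.6% (median 18.5%). In the first set ML46084a took 39.1% of 23 counts at 11 hpf, 51.8% of 56 counts at 12 hpf, 86.7% of 30 counts at 13 hpf and 29.2% of 681 counts at 20 hpf. The first 3 of these shares lie above the range of the second set, and that at 20 hpf lies within it.

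Between 13 and 20 hpf no change in this make-up passed a test. The log2 ratio of ML003220a to ML223518a was 0.84 ± 0.51 at 17 to 20 hpf and 0.82 ± 1.01 at 13 to 16 hpf (SD, n = 16 each), a difference of 0.01 (SE 0.28). For ML003220a to ML46084a the difference was 0.44 (SE 0.43), and for ML223518a to ML46084a it was 0.43 (SE 0.33). Permutation tests of the 3 differences (100000 resamples, two-sided) gave p = 0.965, 0.369 and 0.221, and 0.965, 0.554 and 0.554 after adjustment over the 3 pairs. Over the 8 hours, the ratio of ML223518a to ML46084a had its lowest mean at 13 hpf (−0.81 on the log2 scale) and its highest at 16 hpf (1.29), with a permutation p of 0.0265 that was 0.0794 after adjustment. It was 0.343 after adjustment without the 2 embryos of the first library set. The ratios of ML003220a to ML223518a and to ML46084a gave adjusted p = 0.877 and 0.404 over the hours.

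Whether embryos of 1 hour that were high in one model were also high in another was tested for the 3 pairs, and none passed the threshold after adjustment. With the hour means taken out of log2(CPM + 1), ML003220a and ML223518a had a Pearson r of 0.68 and a Spearman rho of 0.41 over the 32 embryos (permutation within hours, p = 0.0297 and 0.0513, adjusted over 3 pairs 0.0698 and 0.154). Without the 2 embryos farthest from the median r was 0.49, within the second library set it was 0.21 (adjusted p = 0.429), and without the embryo of the first set at 13 hpf alone it was 0.29 (adjusted p = 0.238). ML223518a and ML46084a had r = 0.44 and rho = 0.33 (p = 0.0466 and 0.105, adjusted 0.0698 and 0.158), with r = 0.38 without the 2 farthest embryos and 0.53 within the second set (adjusted p = 0.0465). ML003220a and ML46084a had r = 0.22 and rho = 0.25 (p = 0.40 and 0.222, adjusted 0.40 and 0.222), with r = 0.29 without the 2 farthest embryos and 0.34 within the second set (adjusted p = 0.208). All models of an embryo share its library and its total.

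The other colloblast candidates were spread on both sides of 0 between 13 to 16 and 17 to 20 hpf. Of the 165 others, 94 passed the filter on low counts: 8 were called higher, 8 lower and 78 neither (3.53% and 1.66% of all models were called higher and lower), with a median log2 fold change of 0.06 beside 0.02 over all 8374 models. ML06458a, the highest late among the other candidates under 1 CPM early, was among those that rose (log2 fold change 1.38, SE 0.21, adjusted p = 2.18e-05, edgeR), and ML150914a, the candidate next below the 3 in late level, fell by 1.01 on the log2 scale (SE 0.22, adjusted p = 0.00271).

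The study had grouped candidates by expression in embryo data that include these embryos, and its 2 largest clusters were used here. The clusters are thus not independent of the data. In the first cluster, which holds none of the 3 models, 0 of 27 rose and 6 fell, beside 3.53% and 1.66% of all models, with a median log2 fold change of −0.44. In the second, which holds ML46084a, 1 of the 10 others rose and 0 fell, with a median of 0.18. The one that rose was ML047916a, annotated as a glutaredoxin, an enzyme class that reduces disulfide bonds with glutathione. Its means were 63.1 CPM ± 30.3 and 107 CPM ± 34.4 (SD, n = 16 each; log2 fold change 0.87, SE 0.16, adjusted p = 0.000256, edgeR), after an early level of 4.90 CPM.

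Other members of the second cluster did not pass this test. ML07721a, annotated for ion transport, was the most abundant of them at 111 CPM ± 74.5 and 130 CPM ± 96.0 (SD, n = 16; log2 fold change 0.16, SE 0.31, adjusted p = 0.877). ML50011a, with a calcium-binding EGF domain as found in many extracellular proteins, measured 53.5 and 65.1 CPM, and ML398315a, a diacylglycerol kinase by annotation, 45.9 and 62.6 CPM. ML07242a, a tyrosine protein kinase by annotation, measured 52.5 and 38.2 CPM, and ML003023a, with a nucleoside hydrolase match, 38.4 and 28.2 CPM. ML082715a, ML065317a, ML01434a and ML35607a, which have no match beyond predicted disorder, had means between 14.4 and 28.2 CPM in both spans. All 10 were thus below ML46084a in both spans, and all but ML01434a had more than 1 CPM at 0 to 9 hpf.

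**Figure D5:**
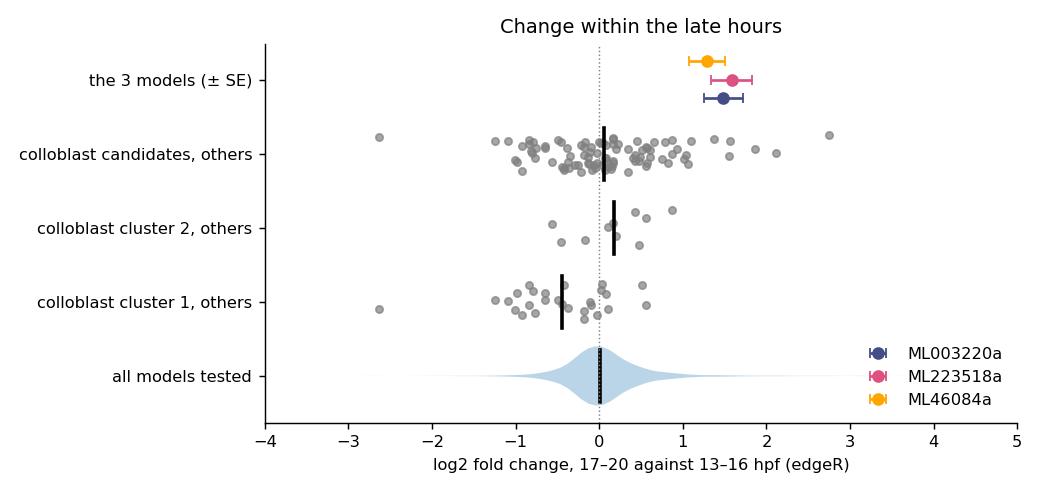
Log2 fold change from 13 to 16 to 17 to 20 hpf (edgeR) for the 3 models with their SE, for the other colloblast candidates, for the 2 clusters without ML46084a (1 grey point per model), and for all other models tested as a distribution; black bars are medians. The 3 models lie at 1.29 to 1.58, and the median of the other candidates is 0.06.

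Lists of neighbouring biology were read in the same way, beside the same 3.53% of all models called higher and 1.66% lower. Tentacle candidates gave 66 models tested, of which 6 rose and 2 fell (median log2 fold change 0.02). In the second tentacle cluster 4 of 6 rose (median 1.13), and in the first 0 of 18 rose and 2 fell (median −0.20). The study again built these clusters on data that include these embryos. Of the 13 toxin-like models assigned to the cell cluster C54, 10 were tested and 2 rose (median 0.22). The 16 other models that met the limits of 1 and 200 CPM gave 12 that rose and 0 that fell (median 1.40). They were chosen by the same windows as the 3 models.

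The study names 3 possible transcription factors of colloblasts, whose levels were read beside those of the 3 models. MlNR1 (ML073417a), a nuclear receptor, was at 589 CPM at 0 to 9 hpf and at 136 CPM at 12 to 20 hpf, lower where the 3 models are higher. MlBsh (ML08269a), a homeodomain factor, had 17.5 and 41.1 CPM, and MlNR2 (ML305522a), also a nuclear receptor, reached 6.41 CPM at 12 to 20 hpf. Between 13 to 16 and 17 to 20 hpf their log2 fold changes were 0.12 (SE 0.15), −0.34 (SE 0.23) and 0.75 (SE 0.41), and none passed the test (edgeR, adjusted p = 0.785, 0.514 and 0.391). MlNR1 was present at 242 CPM at 9 hpf, 192 CPM at 10 hpf, 114 CPM at 11 hpf and 138 CPM at 12 hpf.

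The models whose course over the 49 embryos from 1 to 20 hpf was most like that of the 3, by Pearson correlation of log2(CPM + 1) among 6704 models of at least 10 CPM, were, apart from the 3 themselves, not among the 168 colloblast or 148 tentacle candidates used here. For ML003220a the closest of all was ML223518a itself (r = 0.98), followed outside the 3 by ML055026a, ML14303a, ML064939a, ML199826a and ML050916a (r = 0.97 each). For ML223518a they were ML03029a, ML055026a, ML064939a, ML14303a and ML199826a (r = 0.98 each), with ML003220a 5th of all models. For ML46084a they were ML11481a (r = 0.97), ML032413a (r = 0.97), ML00412a (r = 0.96), ML03704a (r = 0.96) and ML199826a (r = 0.96), with ML223518a 6th and ML003220a 16th. No annotation of these models was at hand, since they are outside the candidate lists used here and their identifiers could not be matched to a reference. This lack says nothing about the genes themselves. The early and late hours, and with them the library sets, make up most of such a correlation. Ranked by Spearman's rho instead, 2, 3 and 0 of the 5 stayed in the lists of ML003220a, ML223518a and ML46084a.

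Over the 32 embryos at 13 to 20 hpf alone the lists changed. ML199832a (r = 0.91), ML055026a (0.90), ML17476a (0.89), ML050916a (0.89) and ML02522a (0.89) were most like ML003220a. ML02522a (0.92), ML17476a (0.90), ML03029a (0.89), ML14303a (0.89) and ML00218a (0.89) were most like ML223518a. For ML46084a the closest, ML005018a, reached 0.78, followed by ML10543a (0.76), ML116411a, ML14303a and ML02963a (0.75 each). ML223518a ranked 7th for ML003220a (0.87) and 7th for ML46084a (0.74), while ML003220a ranked 63rd for ML46084a (0.64). By Spearman's rho, 0, 2 and 2 of the 5 stayed in the lists of ML003220a, ML223518a and ML46084a over these hours.

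All 18 models of these lists rose between 13 to 16 and 17 to 20 hpf; they were picked for likeness to models that rose, so this is no separate result. The highest was ML02963a, at 442 CPM ± 292 and 1125 CPM ± 335 (SD, n = 16; log2 fold change 1.64, SE 0.16, adjusted p = 1.18e-09, edgeR). The steepest was ML005018a, at 138 CPM ± 140 and 652 CPM ± 334 (log2 fold change 3.07, SE 0.23, adjusted p = 1.01e-11). ML17476a had no count at 0 to 9 hpf and none at 10, 11 or 12 hpf, and went from 55.1 to 205 CPM (log2 fold change 2.27, SE 0.19, adjusted p = 7.51e-11).

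An ML2.2 identifier gives a scaffold and a running number on it, so the models with the next numbers were read beside each of the 3. Beside ML46084a, ML46083a rose from 4.76 CPM ± 4.92 to 24.4 CPM ± 19.8 (SD, n = 16; log2 fold change 2.28, SE 0.40, adjusted p = 0.00011, edgeR) and had no count from 0 to 9 hpf nor at 10, 11 and 12 hpf. ML46082a measured 62.0 CPM ± 65.0 and 46.3 CPM ± 43.0 (adjusted p = 0.852), from 0.283 CPM in the early window. The means of ML46085a and ML46086a were at most 7.51 CPM in either span. Beside ML223518a, ML223517a measured 25.1 and 23.6 CPM (log2 fold change −0.21, SE 0.25, adjusted p = 0.776), and the means of ML223516a, ML223519a and ML223520b were at most 5.15 CPM. Those of the 4 models beside ML003220a were at most 9.96 CPM in either span. None of the 3 therefore stood beside a model of like level at 17 to 20 hpf. In course, ML46082a and ML46083a also went from under 1 CPM in the early window to 48.7 and 13.0 CPM at 12 to 20 hpf, below ML46084a.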

How the data were processed

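The authors deposited counts per protein model (ML2.2) for single embryos, made with CASAVA 1.8, Bowtie2 2.1.0 and HTSeq 0.5.4p3 according to the submitters' processing notes; the sources used here do not give the genome build, strand use or counting options, nor whether molecular identifiers were collapsed. Values were whole numbers for 16548 models (15152 with a count) in 50 embryos; HTSeq's classes of uncounted reads were kept out of totals and tests. No column was without a sample. Identifiers matched none in the reference table, so no position or sequence is given.

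CPM is the count scaled to equal totals of all embryos. Window means average time points unless embryos are named. The 3 models, the lists and the tests were chosen with earlier results of these data known; the windows are those of the study. The lists hold candidates with an annotated match, those in the clusters and the 3 models, not the complete lists of the study. Hours from 13 to 20 hpf (32 embryos) entered 1 fit in edgeR 4.0.16 (filterByExpr, which kept 8374 models, TMM factors, hour as a factor, quasi-likelihood F-tests) with Benjamini-Hochberg adjusted p under 0.05. Ratios used a pseudocount of 0.5 counts, correlations log2(CPM + 1), both with 100000 permutations. Intervals are 95% Clopper-Pearson and cover counting error only.

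Named are the 3 models, the other models of the cluster that holds one, 3 transcription factors, the 5 models most like each over 1 to 20 and over 13 to 20 hpf, the candidates nearest outside the limits, and models within 2 identifiers. Tried beside these were DESeq2 1.42.0, limma 3.58.1 (voom), RLE factors, no scaling beyond library size, other filters, pseudocounts and averages, leaving out shallow embryos, 1 library set alone or as a term, exact permutation tests, Spearman likeness, other references for onset, and leaving out each of the 32 embryos; a block by series of embryo numbers was added after the data were seen. Software was Python 3.11.15 with matplotlib 3.10.9, scipy 1.17.1, pandas 2.3.3 and numpy 2.4.6, and R 4.3.3.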

Additional observations from a re-analysis of the deposited data

Results flagged for a closer look

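Among the 24 groups of 4 embryos (3 models at 8 hours), 2 held an embryo far from the other 3. About 1 in 20 such groups would hold one by chance, so 2 of 24 is close to what chance gives. At 17 hpf embryo 80 had 908 CPM of ML003220a against 505 to 569 CPM in the others, a gap of 0.840 of the whole range. At 18 hpf embryo 74 had 266 CPM of ML46084a against 410 to 429 CPM, a gap of 0.884 of the range. Both gaps pass Dixon's 95% critical value for 4 values. Embryo 80 held 912684 counts in all and embryo 74 held 951547, so neither was shallow. Embryo 80 had the lowest level of ML223518a of its hour, 286 CPM.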

How the results depend on the processing

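The rise of ML003220a, ML223518a and ML46084a from 13 to 16 to 17 to 20 hpf and their change over the 8 hours passed the test under every alternative run. Leaving out 1 embryo gave log2 fold changes of 1.39 to 1.57, 1.43 to 1.78 and 1.12 to 1.41, and log2 ranges over the hours of 2.69 to 3.38, 2.94 to 4.25 and 1.92 to 2.62. Models that changed over the hours numbered 297, and 582 with DESeq2 (242 to 321 without 1 embryo); 264 to 325 were higher and 110 to 195 lower at 17 to 20 hpf without 1 embryo.

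Models that met the limits numbered 18, and 32 with medians over time points or 4 with embryos numbered up to 60 alone, where 0 of the 3 did. The hour at 50% of the later mean moved from 15 to 13 hpf for ML003220a (10% of the mean; first-set reference), to 13 and 14 hpf for ML223518a, and from 14 to 12 hpf for ML46084a (10%).

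The difference in the log2 ratio of ML003220a to ML223518a, 0.01, was −0.00034 with a pseudocount of 1 count, −0.014 with 2 counts and −0.12 with embryos above 60 alone. Without 1 embryo it was −0.12 to 0.11, and 0.083 to 0.55 and 0.21 to 0.58 for ML003220a and ML223518a over ML46084a. Ranges over the hours were then 0.81 to 1.13, 0.86 to 2.86 and 1.39 to 2.48. The correlation of ML223518a with ML46084a within an hour passed in embryos above 60 alone (0.53), and without 1 embryo was 0.31 to 0.52; those of ML003220a were 0.29 to 0.72 with ML223518a and 0.13 to 0.31 with ML46084a.

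Steps between hours, none of which passed, changed sign as follows: ML46084a from 15 to 16 hpf, −0.086 with library size alone, −0.027 without the shallow embryos and −0.00029 on CPM; from 18 to 19 hpf, 0.25 without the shallow embryos; from 19 to 20 hpf, 0.049 with limma voom. ML223518a from 16 to 17 hpf was −0.0085 without a filter and −0.015 with a block by series of embryo numbers. Without 1 embryo ML46084a ranged over −0.22 to 0.44 (14 to 15 hpf), −0.13 to 0.51 (15 to 16), −0.83 to 0.088 (18 to 19) and −0.38 to 0.53 (19 to 20), ML223518a over −0.11 to 0.68 (14 to 15), −0.13 to 0.21 (16 to 17), −0.0076 to 0.86 (18 to 19) and −0.80 to 0.10 (19 to 20), and ML003220a over −0.070 to 0.25 (16 to 17) and −0.073 to 0.48 (19 to 20). The cause of these shifts was not tested.

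Of the 5 models most like each of the 3, 0 to 3 were shared with a list ranked by Spearman's rho, and 1 to 4 with a list made without the shallow embryos. No paired analysis was possible because the labels give the embryos no shared replicate number. Embryos above 60 run in 4 series of consecutive numbers over the hours, whose meaning the labels do not give. With these series as a block, chosen after seeing the data, the log2 fold changes were 1.45, 1.56 and 1.28, and each still passed (edgeR, adjusted p = 2.13e-07, 1.03e-05 and 0.000159). With 1 embryo at each time point up to 12 hpf, the early course has no replicate, and the limits of CPM there follow the counts of each embryo.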
